A study of Mus musculus with 4 samples.

Results

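The genes described here encode DNA-binding factors of the AP-2 family and of the grainyhead and CP2 family, some of which have known roles in the distal nephron and collecting duct. They are the Tfap2 (AP-2) genes Tfap2a to Tfap2e, the grainyhead-like genes Grhl1 to Grhl3, and the CP2 genes Tfcp2 and Tfcp2l1. They were chosen by name and with earlier results of these data known, 10 genes among the 21896 protein-coding genes of the reference table. The genes were looked up by symbol in gene lists from chromatin immunoprecipitation followed by sequencing (ChIP-seq). The study was of targets of Foxp1, a forkhead transcription factor. The chromatin came from tubular cells of neonatal mouse kidneys, either from Foxp1KspKO mice or from their littermate controls, with 1 ChIP and 1 input library per genotype. Newborn kidneys were digested with collagenase and passed through a sieve, so the cells were enriched rather than sorted. Ksp stands for Ksp-cadherin, whose promoter drives Cre recombinase in renal tubule epithelium, and cells outside that epithelium would keep Foxp1. Whether animals were pooled is not given in the sources used here. The antibody field of the labels gives rabbit IgG for the control and a Foxp1 antibody for the knockout, whereas both ChIP libraries carry a FoxP1 name. They are called the control library and the knockout library (Foxp1KspKO) after the genotype in their titles, each with its own gene list, and the antibody behind each direction given below is not settled.

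Tfap2 proteins bind GC-rich palindromes as dimers, and in mice Tfap2b is required for normal distal tubule function and for keeping renal tubules free of cysts. Grainyhead-like proteins bind DNA of epithelial genes and maintain cell junctions and barriers. In the mouse collecting duct Grhl2 supports the tight barrier of the epithelium, and Tfcp2l1 takes part in the patterning of intercalated and principal cells. The labels name no antibody against any of these proteins, and the values below describe ChIP signal at their genes.

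The control list held 4 of the 10 genes and the knockout list 2, and 6 were in neither. The 4 control genes were Tfap2a, Tfap2b, Tfap2c and Tfcp2, and the 2 knockout genes were Tfap2a and Tfcp2. A gene is listed when the authors gave it a p-value, and 0.05 is the upper limit of the values in the lists. The lists hold no read count, fold enrichment or peak position, so the depth behind each value is unknown and the part of the gene that carried the signal cannot be shown. RefSeq promoter windows (GRCm38.p6, from 250 bases before to 50 after a transcription start) were found for 8 of the 10 genes, and Tfap2c and Grhl2 had none in the table. The windows of the listed genes are printed first, because they show how differently these promoters are built. All are written 5′ to 3′ on the strand of the gene, with CpG dinucleotides in capitals. Tfap2a has a pair of windows on the minus strand of chromosome 13, the upstream one at chr13:40734871-40735170 and the downstream one at chr13:40733746-40734045. The Tfap2b window is on the plus strand at chr1:19211804-19212103 and the Tfcp2 window on the minus strand at chr15:100551959-100552258.
Tfap2a upstream: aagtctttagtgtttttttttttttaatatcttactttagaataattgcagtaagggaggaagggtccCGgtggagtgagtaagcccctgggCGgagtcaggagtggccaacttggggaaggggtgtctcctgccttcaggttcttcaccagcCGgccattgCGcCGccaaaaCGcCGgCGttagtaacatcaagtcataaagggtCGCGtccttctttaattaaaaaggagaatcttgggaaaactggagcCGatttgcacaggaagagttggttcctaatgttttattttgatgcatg
Tfap2a downstream: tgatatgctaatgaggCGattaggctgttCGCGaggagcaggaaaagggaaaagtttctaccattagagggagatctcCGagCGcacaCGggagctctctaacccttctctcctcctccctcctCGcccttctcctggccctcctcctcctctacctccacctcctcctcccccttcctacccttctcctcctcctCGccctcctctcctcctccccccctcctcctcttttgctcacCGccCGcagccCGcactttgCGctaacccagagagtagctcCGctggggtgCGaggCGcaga
Tfap2b: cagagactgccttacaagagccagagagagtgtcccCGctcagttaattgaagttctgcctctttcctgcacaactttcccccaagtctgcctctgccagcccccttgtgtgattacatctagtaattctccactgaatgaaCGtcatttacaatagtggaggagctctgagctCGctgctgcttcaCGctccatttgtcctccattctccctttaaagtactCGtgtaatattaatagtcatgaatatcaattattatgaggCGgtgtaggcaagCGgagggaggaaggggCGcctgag
Tfcp2: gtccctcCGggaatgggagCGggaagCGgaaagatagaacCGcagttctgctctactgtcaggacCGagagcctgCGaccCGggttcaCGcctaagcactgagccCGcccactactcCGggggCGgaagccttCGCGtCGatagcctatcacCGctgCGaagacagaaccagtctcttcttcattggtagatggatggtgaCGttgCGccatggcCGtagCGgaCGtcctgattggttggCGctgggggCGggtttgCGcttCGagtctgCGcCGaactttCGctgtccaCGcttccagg

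Of these windows that of Tfcp2 was the richest in CpG, with 29 CpG dinucleotides and 61.7% G and C. Tfap2b had 8 CpG dinucleotides and 48.3% G and C, and the windows of Tfap2a had 11 and 15 with 46.3% and 61% G and C. Over all 32851 windows of the table the medians were 7 CpG dinucleotides and 52.7% G and C. The Tfap2a and Tfap2b windows lie inside the annotated spans of their genes, at internal starts.

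Motif letters were then searched on both strands of these windows. The forkhead core TGTTTAC was in 3.65% of all windows, and none of the 12 windows of the 8 genes held it. AACNNGTT, the letters of a grainyhead site, was in 4.2% of all windows and likewise in none of the 12. The Tfap2 palindrome GCCNNNGGC was in 16.6% of all windows. Among the 12 it was in 1 window of Grhl1, whose other window lacked it, and in that of Tfcp2l1. Neither gene was in a list. No match says only that these letters are not in this window. The windows with a match are shown with the Tfap2 letters in capitals, both from the plus strand, at chr12:24572037-24572336 for Grhl1 and chr1:118627695-118627994 for Tfcp2l1. Both matches read GCCTTGGGC.
Grhl1: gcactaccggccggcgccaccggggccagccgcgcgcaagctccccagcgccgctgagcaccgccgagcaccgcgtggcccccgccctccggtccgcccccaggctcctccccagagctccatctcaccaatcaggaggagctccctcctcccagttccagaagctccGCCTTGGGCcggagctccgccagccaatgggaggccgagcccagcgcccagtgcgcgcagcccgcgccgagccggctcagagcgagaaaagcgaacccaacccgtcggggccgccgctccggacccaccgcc
Tfcp2l1: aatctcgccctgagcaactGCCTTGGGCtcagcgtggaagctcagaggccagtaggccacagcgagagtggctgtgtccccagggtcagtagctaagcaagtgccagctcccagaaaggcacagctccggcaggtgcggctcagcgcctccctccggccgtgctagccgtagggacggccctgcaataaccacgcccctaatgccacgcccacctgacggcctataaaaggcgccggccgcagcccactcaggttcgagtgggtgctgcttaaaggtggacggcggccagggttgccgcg

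Tfap2a had the strongest values of the 10 genes in both libraries. It encodes a regulator of neural crest and ectoderm that is also expressed in the distal nephron (chromosome 13, 40713802 to 40738238, GRCm38). In the authors' deposited table its p-value was 2.31e-18 in the control library and 3.06e-07 in the knockout library. It stood at place 164 of 6799 control genes and at place 237 of 4953 knockout genes, which is within the first 2.41% and 4.78% of the lists. On the −log10 scale the values were 17.64 and 6.51, a difference of 11.12 in favour of the control library. The median difference over the 3086 genes listed for both libraries was 1.28, and 213 of them (6.9%) had a larger one. A difference can be that large only where the control p-value is low. Of the 164 control genes with a p-value at least as low, Tfap2a included, 157 were also in the knockout list. Among those 157 genes, 51, again with Tfap2a, had a knockout p-value no higher than that of Tfap2a. With 1 library per genotype the differences between libraries have no replicate error and no test.

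**Figure D1:**
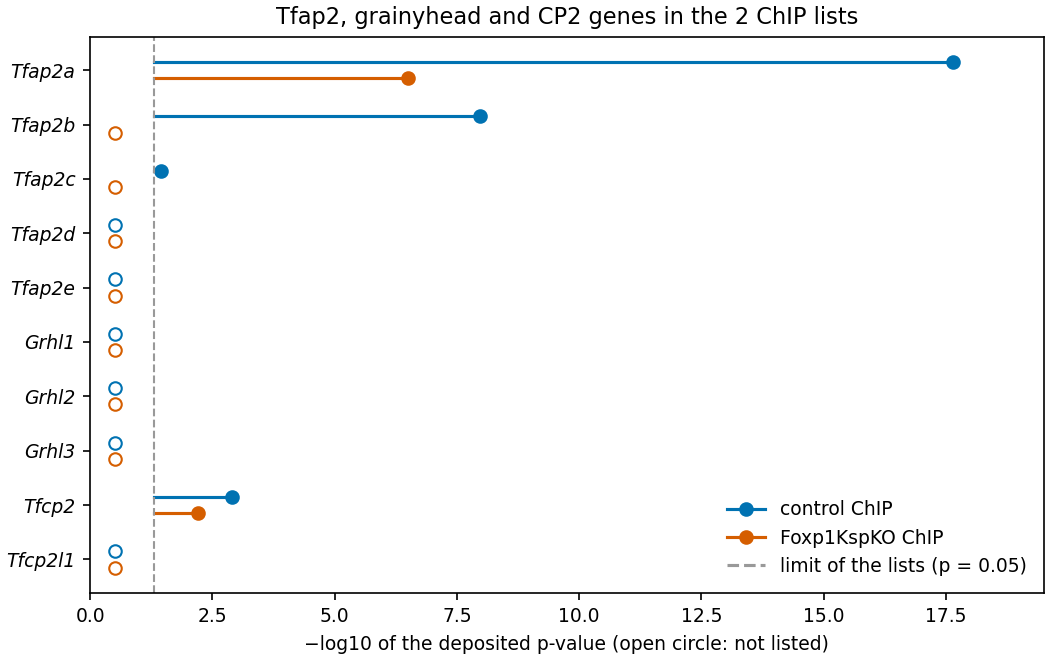
Values of −log10 p (horizontal axis) for each of the 10 genes in the control library (blue) and the knockout library (orange), 1 library each, with open circles for genes not listed and a dashed line at the p-value limit of 0.05. Tfap2a reaches 17.64 and 6.51, Tfap2b appears in the control library alone at 7.97, and 6 genes have open circles in both libraries.

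Tfap2b, the family member tied most closely to the distal nephron, was listed for the control library and not for the knockout library (chromosome 1, 19208908 to 19238845). Its p-value in the authors' deposited table was 1.07e-08, at a mean place of 775.5 in the control list (11.4% from the top). Control genes within 10-fold of that p-value numbered 360, and 240 of them (66.7%) were also in the knockout list, so Tfap2b belonged to the smaller part at its strength. Tfap2b was also in the list that the authors set aside as unique to the control (the unique list below).

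Tfap2c, best known for its roles in trophoblast and germ cells, was at the weak end of the control list (chromosome 2, 172545678 to 172558622). The authors' deposited table gave it 0.0346 in the control library, and 6293 control genes had a lower p-value. It was absent from the knockout list and present in the unique list. Among the 2764 control genes within 10-fold of its p-value, 31.1% were in the knockout list, so absence was the more common state at that strength.

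The remaining Tfap2 genes were in no list. Tfap2d, a gene of the developing midbrain (chromosome 1, 19103022 to 19173948), and Tfap2e, which is expressed in the olfactory system (chromosome 4, 126716003 to 126736269), had no p-value in either ChIP. Tfap2d ends 35 kb from Tfap2b, the nearest protein-coding gene on that side, and the pair differed in listing in the control library.

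Tfcp2, which encodes a broadly expressed CP2 factor, was listed for both libraries in the middle of the ranking (chromosome 15, 100497781 to 100552014). In the authors' deposited table its p-values were 0.00123 in the control library and 0.00620 in the knockout library. Its places corresponded to 50.4% and 52.3% of the lists, so its position from the top was nearly the same in both. The difference on the −log10 scale was 0.70, below the median of 1.28 over all shared genes. Tfcp2l1, its paralog with a role in the collecting duct (chromosome 1, 118627923 to 118685168), was in neither list. Ubp1, the remaining mouse gene of the CP2 group and not among the 10, had 0.0301 in the control library of the authors' deposited table, was absent from the knockout list and was in the unique list.

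None of the 3 grainyhead-like genes was in any list. They were Grhl1, a regulator of desmosomal genes in the epidermis (chromosome 12, 24572232 to 24617391), Grhl2 (chromosome 15, 37232821 to 37363569), and Grhl3, which is needed for the skin barrier and neural tube closure (chromosome 4, 135541887 to 135573632). Grhl2 is the longest of the 10 genes with 130749 bp, and Tfap2c, which was listed, is the shortest with 12945 bp. A gene missing from a list has a p-value that was not given, and no bound on its ChIP signal can be derived.

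The counts were close to the share of all genes in the lists. In the control list 29.0% of all protein-coding genes were present, against 4 of the 10 (40%). The knockout list held 20.9% of protein-coding genes and 2 of the 10 (20%). The control list alone held 15.7% and the unique list 15.1%, and each held 2 of the 10, Tfap2b and Tfap2c in both cases. Shares this near the background are no result about these genes as a group. Below a p-value of 1e-10 the control list had 2.22% of protein-coding genes and the knockout list 0.237%, and Tfap2a in the control library was the 1 value of the 10 genes past that limit. For Tfap2a and Tfcp2 the control value was the lower one, as for 71.4% of all genes in both lists. Under a p-value of 0.001 the 10 genes contributed Tfap2a and Tfap2b in the control list, which held 14.2% of protein-coding genes at that limit, and Tfap2a in the knockout list, which held 6.61%. After a Benjamini-Hochberg adjustment of the deposited values over all protein-coding genes, 3 of the 10 passed in the control list (21.3% of all) and 1 in the knockout list (10.3% of all), with Tfap2c lost from the first and Tfcp2 from the second. The knockout list alone held 7.64% of protein-coding genes and 0 of the 10. Both lists together named 13.2% of protein-coding genes and 2 of the 10. The rest of the protein-coding genes, more than were listed, were in neither, as were 6 of the 10. Among the 10849 protein-coding genes whose length lies within the range of the 10, the control list held 31.7%, the knockout list 22.1% and the unique list 16.4%.

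**Figure D2:**
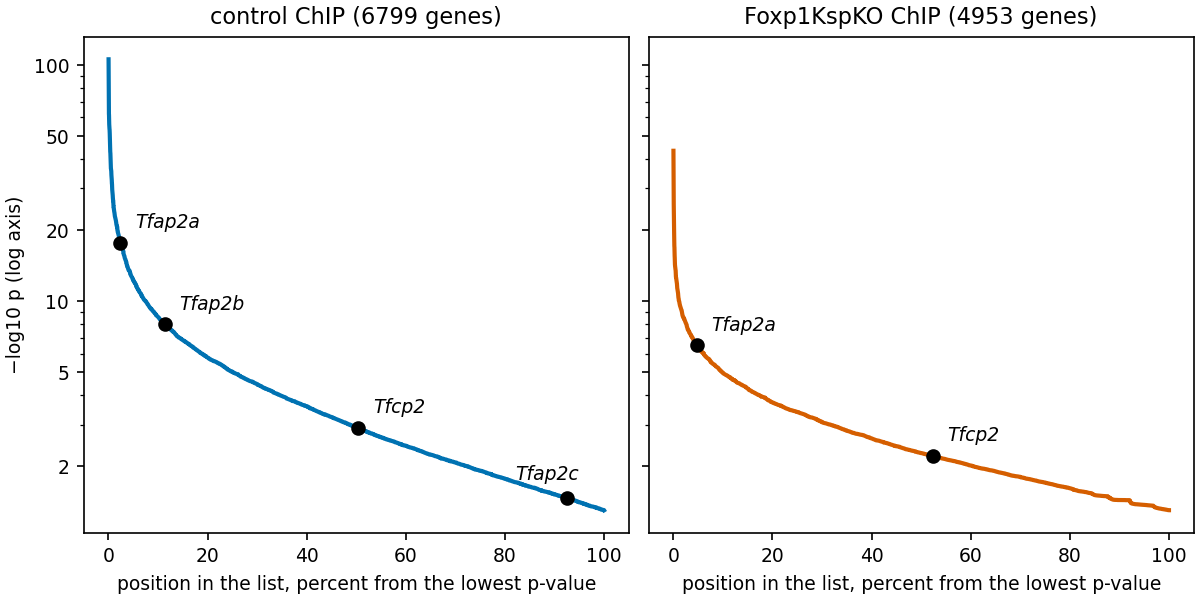
Ranked −log10 p-values (vertical log axis) of the 6799 genes of the control list (left) and the 4953 genes of the knockout list (right) against position from the lowest p-value in percent of the list, with black points for the listed genes described here. Tfap2a lies at 2.41% and 4.78%, Tfcp2 near the middle of both lists, and Tfap2c at 92.6% of the control list.

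The unique list treated Tfap2a and Tfap2b differently, although Tfap2a had the lower control p-value. Of the 3483 symbols in the unique list 116 were also in the knockout list, and in the authors' deposited table none of these exceeded 3.35e-13 in the control or fell under 1.93e-04 in the knockout. Tfap2a met the first limit and not the second, and Tfcp2 met the second and not the first. Neither was in the unique list, and the limits are the extremes seen among the 116 symbols, not a rule stated by the authors. Of the 45 control genes within 10-fold of the Tfap2a p-value, 36 (80%) were in the knockout list and 25 (55.6%) in the unique list.

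**Figure D3:**
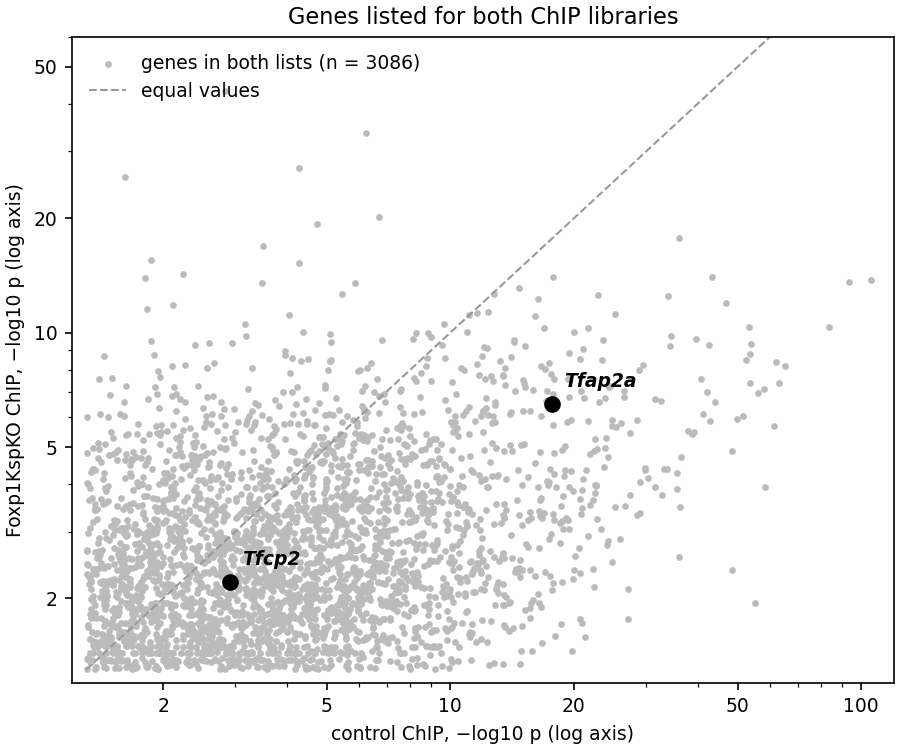
The 3086 genes listed for both libraries, with −log10 p in the control library (horizontal log axis) against −log10 p in the knockout library (vertical log axis), each point 1 gene and the dashed line marking equal values. Tfap2a, at 17.64 and 6.51, and Tfcp2, at 2.91 and 2.21, both lie below the line.

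The protein-coding genes whose pair of values lay nearest to that of Tfap2a were Cic, Ebf2 and Tmem259. Likeness was measured as the distance between the pairs of −log10 p-values of the libraries, and the distances were 0.44, 0.53 and 0.70. Cic, which encodes a repressor downstream of receptor tyrosine kinases, had 1.49e-18 in the control library and 1.22e-07 in the knockout library of the authors' deposited table. Ebf2, a transcription factor gene of the early B-cell factor family, had 7.77e-18 and 2.47e-07 in the authors' deposited table. The 3 genes lie on chromosomes 7, 14 and 10, and Tfap2a is on chromosome 13. In all, 50 other genes had p-values at least as low as those of Tfap2a in both libraries.

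Exact ties are common in these lists, with 67.2% of control genes and 61% of knockout genes sharing their p-value with another gene. Tfap2a shared its values with no gene. Tfap2b shared its control p-value with Dact1, Tfap2c with Snrpa1, and Tfcp2 with Dapk1 and Uap1, while the knockout p-value of Tfcp2 was shared with Gpr157. None of these partners lay on the same chromosome as the gene it was tied with, and none of the 4 listed genes shared a value with a gene within 500 kb.

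The surroundings of the genes differed as well. The nearest protein-coding genes to Tfap2a were Ofcc1, 426 kb away and in no list, and Gcnt2, 122 kb away with 0.0295 in the control library of the authors' deposited table. Tfap2b had no listed neighbour, with Pkhd1, the gene of autosomal recessive polycystic kidney disease, 819 kb away and in no list. Tfap2c had Fam209, in no list, at 71.4 kb and Bmp7, a growth factor gene needed for nephron progenitors, at 309 kb. Bmp7 had a lower p-value than Tfap2c, 2.76e-06 in the control library of the authors' deposited table, and was absent from the knockout list. The neighbours of Tfcp2, Csrnp2 at 2.54 kb and Pou6f1 at 23.3 kb, were in no list.

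Each of the 6 genes missing from the control list stood next to a gene that was in it, against 45.7% of the 15553 protein-coding genes missing from that list. Of the 4 genes in the control list 2 had a listed neighbour, against 56.7% of the 6343 protein-coding genes in it. The neighbours of the missing genes, apart from Tfap2b, were chosen after their values were seen. Grhl2 ends 2.61 kb from Ncald, which had 0.00212 in the control library of the authors' deposited table. Grhl3 lies 4.08 kb from Stpg1, with 0.00622 in the control library and 7.67e-05 in the knockout library of the authors' deposited table. Grhl1 lies between Taf1b and Klf11, which had 0.00324 and 2.53e-08 in the control library of the authors' deposited table. Tfcp2l1 lies between the microtubule regulator gene Clasp1 and Gli2, an effector of hedgehog signalling. Clasp1 had 1.47e-09 and Gli2 0.0265 in the control library of the authors' deposited table, and both were also in the knockout list, with 0.0154 and 0.0428. Tfap2e lies 6.29 kb from the proteasome subunit gene Psmb2, with 0.00255 in the control library of the authors' deposited table. The neighbours on the other side of Tfap2d, Tfap2e, Grhl2 and Grhl3 were in no list (Defb41, Ncdn, LOC115488529 and Ifnlr1). In the knockout library 3 of the 8 missing genes (Grhl1, Grhl3 and Tfcp2l1) had a listed neighbour, against 37% of all missing genes.

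**Figure D4:**
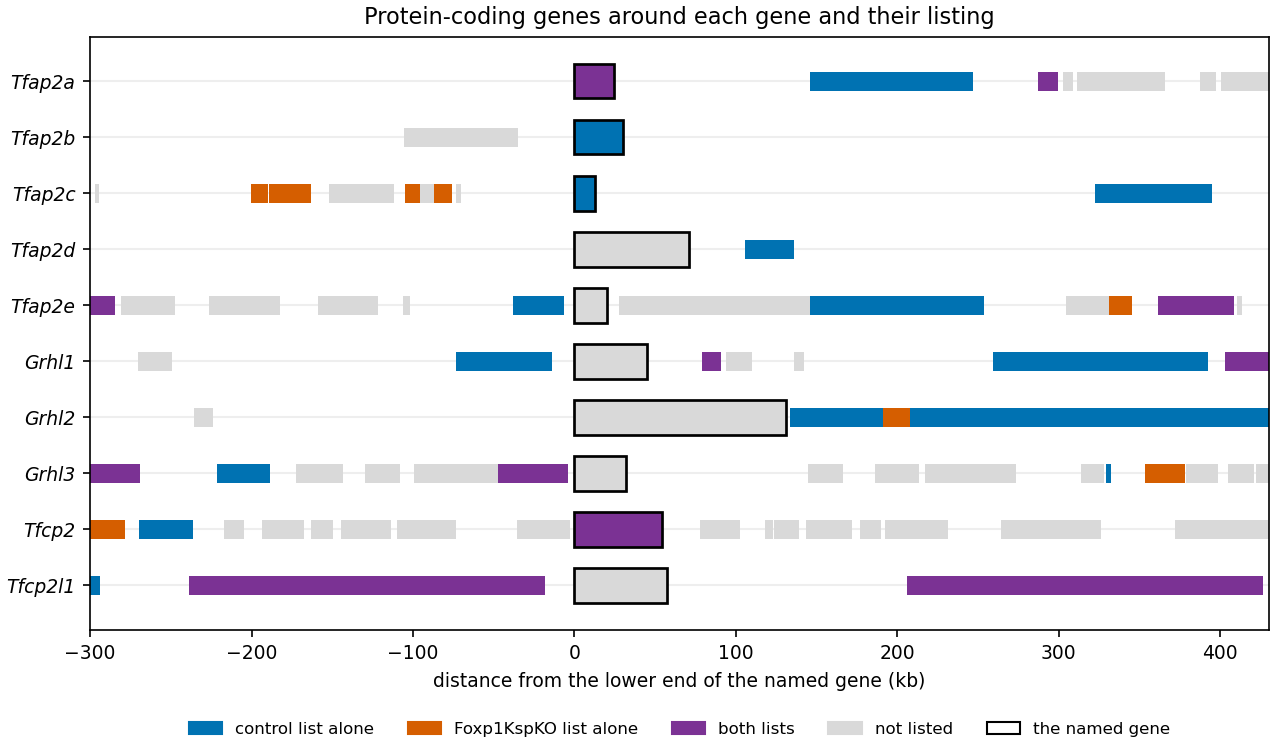
Protein-coding genes from 300 kb below to 430 kb above the lower end of each of the 10 genes, with distance in kb on the horizontal axis and the named gene outlined in black. Blue genes are in the control list alone, orange in the knockout list alone, purple in both and grey in neither, and each of the 6 grey outlined genes has a coloured gene next to it.

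Genes that work with these factors were followed through 3 further lists, all chosen with earlier results of these data known. Their shares are therefore descriptions. The first list holds partners of Tfap2 proteins. The control list held 5 of its 7 genes (71.4%, against 29.0% of protein-coding genes) and the knockout list 4 (57.1%, against 20.9%), and the median control p-value of the list was 0.00597, whereas the median protein-coding gene was in neither list. Cited2, a coactivator of Tfap2 proteins, had 3.81e-32 in the control library and 1.19e-04 in the knockout library of the authors' deposited table. Kctd15 and Kctd1 encode related inhibitors of Tfap2a activity. The authors' deposited table gave Kctd15 2.37e-06 in the control library and 0.0360 in the knockout library, and gave Kctd1 0.00597 and 0.00182. Kctd1 was the partner gene in both lists whose p-value was lower in the knockout library. Wwox, whose product binds Tfap2c, had 0.0318 in the control library of the authors' deposited table and was absent from the knockout list. Ep300, a further coactivator, had the lowest p-value of the partner list, with 3.95e-49 for the control and 0.00416 for the knockout in the authors' deposited table, and was in the unique list although both libraries listed it. Cited1 and Cited4 were in neither list.

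The second list holds 15 genes of the epithelial programme that grainyhead-like proteins act on. The control list held 3 of them (20%, against 29.0% of protein-coding genes) and the knockout list 5 (33.3%, against 20.9%). Esrp1, a regulator of epithelial splicing, had 2.48e-06 in the control library and 9.79e-04 in the knockout library of the authors' deposited table. Zeb2, a repressor of epithelial genes that opposes this programme, had 4.19e-10 and 2.27e-05 in the authors' deposited table. Ovol2 was in the control list alone, with 0.0127 in the authors' deposited table, while Ovol1 (0.0102), Esrp2 (0.0121) and Cldn7 (0.0493) were in the knockout list alone. The other 9 were in neither, like the grainyhead-like genes themselves. They were the junction genes Cdh1, Cldn3 and Cldn4, the adhesion gene Epcam, and Rab25, St14, Spint1, Tmprss2 and Zeb1.

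The third list holds 24 other transcription factor genes of the distal nephron and collecting duct. The control list held 17 of them (70.8%, against 29.0%), the knockout list 9 (37.5%, against 20.9%) and the unique list 10 (41.7%, against 15.1%). The median control p-value of the 24 was 0.00179. Of these, 9 were in both lists, 8 in that of the control alone, 0 in that of the knockout alone and 7 in neither. Over all protein-coding genes 13.2% were in both, 15.7% in the control list alone, 7.64% in the knockout list alone and the rest in neither. Pax2, a regulator of nephric duct and nephron formation, had 4.48e-28 in the control library and 1.84e-04 in the knockout library of the authors' deposited table. The authors' deposited table gave Hoxb7, active in the ureteric bud, 5.17e-20 and 6.06e-04, and gave Sim1 9.41e-19 and 0.0254. The control values of Pax2, Hoxb7 and Sim1 were lower than that of Tfap2a, and their values in the knockout library were weaker than its 3.06e-07. Mecom had 2.61e-10 in the control library and 0.00844 in the knockout library of the authors' deposited table. Hmx2 and Sall3, a factor of the distal tubule, were among those in the control list alone, as Tfap2b was. Their values in the authors' deposited table were 1.88e-13 and 7.05e-08. Klf5, a factor of the collecting duct, had close values of 6.47e-07 and 1.13e-06 in the authors' deposited table. Elf3 and Emx1 were the genes of this list with the lower p-value in the knockout library. Foxi1, Elf5, Ehf, Esrrb, Esrrg, Lhx1 and Pou3f3 were in neither list. The 24 genes were chosen with earlier results of these data known, so their share is a description.

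**Figure D5:**
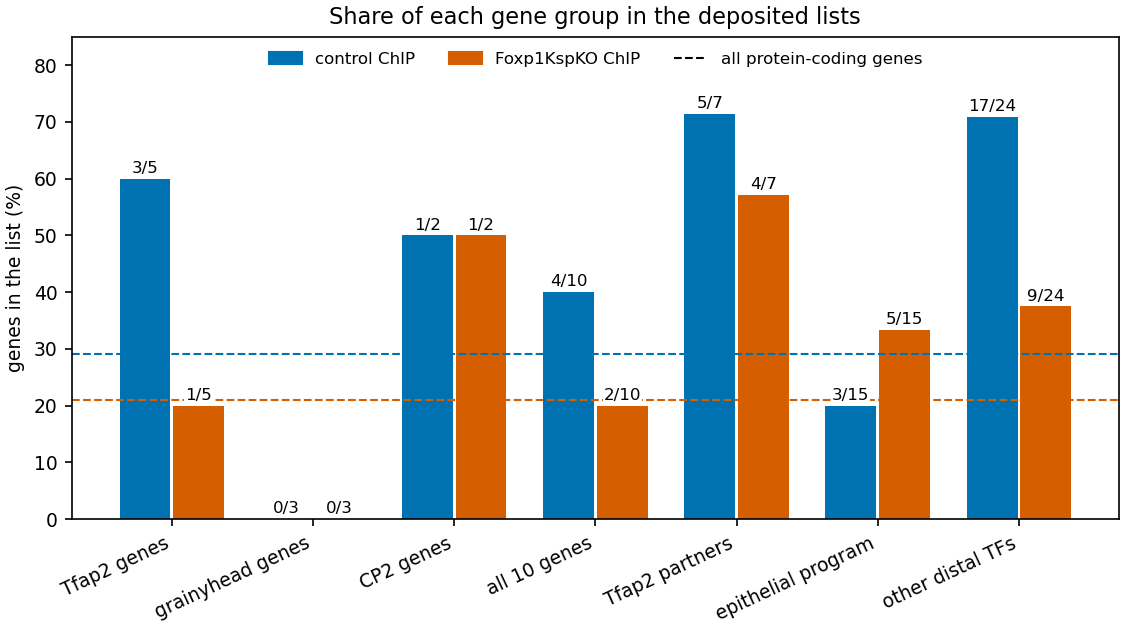
Percent of each gene group present in the control list (blue) and the knockout list (orange), with the number of genes over the group size on each bar and dashed lines for all protein-coding genes (29.0% and 20.9%). The 10 genes stand at 40% and 20%, near the lines, and the other distal transcription factors (TFs) at 70.8% and 37.5%.

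The lists as a whole set the scale for these values. The median p-value was 0.00116 over the 6799 control genes and 0.00533 over the 4953 knockout genes. Foxp1 itself was in neither list, so no value at the targeted gene checks the genotype labels. Of 15 marker genes of kidney cell types the control list held 1 (6.67%, against 29.0% of protein-coding genes). The knockout list held 2 (13.3%, against 20.9%), and 12 were in neither, as were most protein-coding genes. Slc12a1, the sodium-potassium-chloride cotransporter of the thick ascending limb, had 0.0475 in the control library of the authors' deposited table. The podocyte gene Nphs1 had 0.0212 and the pericyte gene Pdgfrb 0.0366 in the knockout library of the authors' deposited table. The lists hold no expression values, so the labelled cell type could not be checked against its markers.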

How the data were processed

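ChIP-seq was performed on 4 libraries, a ChIP and an input for each genotype, 1 library per group. Per the submitters' processing notes, edgeR, deepTools, Bowtie2, Trimmomatic and FastQC were used with mouse build GRCm38 (mm10); versions and roles are not stated. The authors deposited 3 gene lists with 1 p-value per gene; what was tested against which library, over which region and with what correction is not stated in the labels. Depth is unknown. The lists were assigned to the ChIP libraries by matching sheet names to sample descriptions.

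Genes were matched by symbol. List sizes and places in the ranking count NCBI gene numbers, with the lowest p-value kept and ties at their mean rank. The background is the 21896 protein-coding genes of the RefSeq table for GRCm38.p6, which also gave coordinates (1-based) and promoter windows. A Benjamini-Hochberg adjustment over these genes gave unlisted genes the highest possible value. It was run on 20 simulated lists to check the calculation alone. Whether the deposited values had already been corrected is unknown. Likeness to Tfap2a was measured as Euclidean distance over both −log10 p-values.

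The 10 genes and the 3 further lists were chosen with earlier results of these data known. Named besides them were Ubp1, Foxp1, the 3 genes nearest to the strongest gene in each library (Tfap2a in both), genes tied with a listed gene, and the protein-coding genes next to each. Genes tied from other chromosomes and neighbours of unlisted genes were named after their values were seen. A planned comparison of protein sequences was not made, since no protein table was used here. No test between genotypes was possible. Python 3.11.15 and pandas 2.3.3 were used.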

Additional observations from a re-analysis of the deposited data

How the results depend on the processing

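Matching by NCBI gene number or Ensembl identifier in place of the symbol changed none of the counts or p-values of the 10 genes, since each listed gene had 1 row. A stricter limit changed the counts. Under a p-value of 0.01, the genes listed for the control alone fell to 1 and those of the unique list to 1 (Tfap2b in both cases). Under 0.001, the control list held 2 of the genes, the knockout list 1 and the unique list 1, with 1 listed for the control alone and 1 shared gene with the lower control value. After the Benjamini-Hochberg adjustment Tfap2a, Tfap2b and Tfcp2 passed in the control list and Tfap2a in the knockout list. That left 1 gene in the knockout list, 1 in the unique list and 1 with the lower control p-value among shared genes. The count for the control alone stayed at 2, but with Tfcp2 in the place of Tfap2c. Adding Ubp1 gave 5 of 11 genes in the control list. The background share was 31.7% in the control list and 22.1% in the knockout list for genes as long as these, and 35.9% and 26.1% for genes with a promoter window of at least 60% G and C, a setting chosen after seeing the data. No paired analysis was possible because each genotype has 1 ChIP library, and for the same reason no library could be left out. Unknown depth limits the lists: a gene absent from the knockout list is not shown to lack signal there.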
